A study of Saccharomyces cerevisiae with 4 samples.

Results

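The data described here are the change of each transcript when *Saccharomyces cerevisiae* cells lacking *SOD1* met hydrogen peroxide. *SOD1* encodes the cytosolic copper-zinc superoxide dismutase, which turns superoxide into hydrogen peroxide and oxygen. RNA of sod1Δ cells exposed to H2O2 (0.4 mM, 20 min) was set against RNA of untreated sod1Δ cells, with 1 Affymetrix array a side. Both cultures were haploid, of the strain named FM391, carried the *SOD1* deletion, and grew at 30 °C in synthetic medium lacking leucine to an OD600 near 0.4. The series also holds 1 array of untreated and 1 of treated wild type cells of FM391 under the same conditions, 4 arrays in all, and it was designed to find peroxide-responsive genes that are induced less without *SOD1*. The sources used here do not say whether the deletion strain is 1 clone, what marker replaced the gene or which mating type the cells had.

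The value of a gene was the mean deposited log2 signal over the probe sets annotated to that gene alone. Its response is the level with H2O2 minus the level without, so 1 on this scale is a 2-fold difference. A gene was tested, meaning only that it was set against the size threshold, when the brighter of its sod1Δ arrays lay above 2.31. That floor is the 95th percentile of the probe sets on the array that are annotated to *Schizosaccharomyces pombe* genes. Of 5449 genes measured, 5341 passed and 108 did not. The genes nearest the floor were *YPL152W-A* and *ZNF1* just above it, at 2.3133 and 2.3145 on the brighter array, and *YLR415C* and *MSH4* just below, at 2.3068 and 2.3026. "Higher" and "lower" mean a difference of at least 2-fold between these 2 arrays. There is no replicate and therefore no error between cultures, no p-value and no test of any difference in what follows.

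When yeast meets peroxide, the transcription factor Yap1 is oxidised through the thiol peroxidase Hyr1, stays in the nucleus and drives genes of thiol reduction, detoxification and export. The factors Msn2 and Msn4 drive a wider general stress programme that many insults share and that protein kinase A restrains. In the same stresses cells usually lower the transcripts for making ribosomes and slow their division cycle.

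The labels could be checked on the arrays. *SOD1* was at 2.40 untreated and 2.42 treated in sod1Δ, near the floor, against 14.21 and 14.31 in wild type. Transcripts that define haploid a cells were bright on both sod1Δ arrays, with *MFA1* at 11.88 and 11.60, *MFA2* at 12.51 and 11.88, *STE2* at 12.65 and 12.42, *STE6* at 11.08 and 10.34, and *BAR1* at 11.44 and 10.43. Of 4 alpha markers, *MF(ALPHA)1* was at background at 2.21 and 2.22, while *MF(ALPHA)2* was at 7.40 and 8.37, *STE3* at 8.04 and 8.62, and *SAG1* at 8.30 and 8.83. The part of these alpha transcripts in the responses below was not tested. Within the arrays, precision was judged from 42 genes with 2 probe sets, whose responses had an SD of 0.58 per probe set. In 40 of the 42 both probe sets had the same sign, and in 8 they differed at least 2-fold. Many of the 42 are ribosomal protein genes or other genes with close copies, so this SD may not hold for genes at large. The 18 hybridization controls differed by a median of 0.11 between the arrays (-0.32 to 0.73), and 0 of the 1746 *S. pombe* probe sets, of which 145 lay above the floor, passed 2-fold. The *S. pombe* probe sets define the floor, so they show the spread at background only.

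In sod1Δ, 782 of the 5341 genes (14.6%) were higher with H2O2 and 844 (15.8%) were lower. In RNA of whole cultures scaled to a common distribution, less RNA per cell and fewer cells that express a gene cannot be told apart. Large changes were as frequent in the downward direction or more so. At least 8-fold differences (3 on the log2 scale) were seen in 113 genes upward and 175 downward, and differences of 5 or more in 20 and 38. The median response over all tested genes was -0.03, with quartiles at -0.59 and 0.54. Wild type had 915 higher (17.1%) and 862 lower (16.1%) of 5358. Of the 782 genes higher in sod1Δ, 665 (85.0%) were also higher in wild type, and of the 844 lower genes 674 (79.9%) were also lower there. In 7 and 12 genes, respectively, the wild type sign was opposite. A single gene passed 2-fold in opposite directions in the strains: *TIR1*, a cell wall mannoprotein gene, was at 5.68 and 7.0 in sod1Δ, a response of 1.31, against -1.06 in wild type.

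The nearest genes inside the threshold were *DDI3* and *DCS1* at 1.0003 and 1.0002 and *RAX2* and *GCD11* at -1.0028 and -1.0040. Just outside it lay *SDH6* and *NTH1* at 0.9992 and 0.9986 and *NUD1* and *CSL4* at -0.9999 and -0.9988. These 8 genes are separated by far less than the spread of probe sets of 1 gene. The share of genes past the threshold also varied with the level. Among genes with a mean level between 4 and 6, 22.1% were higher and 29.9% lower, while above 12 the shares were 5.80% and 4.64%.

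**Figure D1:**
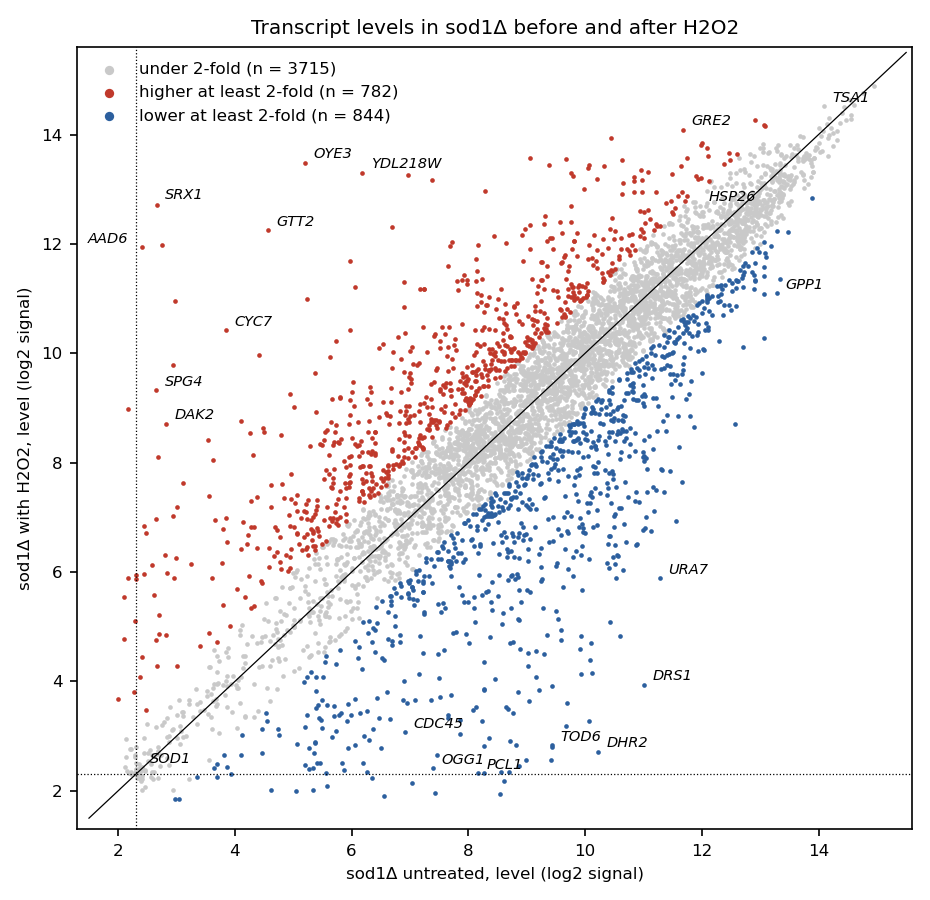
Level of each of 5341 genes in untreated sod1Δ (x axis, log2 signal) and in sod1Δ with H2O2 (y axis, log2 signal), 1 array each, 1 point per gene. The 782 higher genes are red, the 844 lower genes blue and the 3715 others grey, the diagonal marks equal levels and the dotted lines mark the floor of 2.31; the largest increases begin near the floor and many of the largest decreases end near it.

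Enzymes that destroy peroxide head the response. Of 12 genes for peroxide removal, 8 were higher and 0 lower, with a median response of 3.26 in sod1Δ and 3.20 in wild type, against the 14.6% of all genes that were higher. *SRX1*, whose product, sulfiredoxin, restores peroxiredoxins that were oxidised too far, had the largest increase of all tested genes, going from 2.66 untreated to 12.70 with H2O2. That is a response of 10.05, or 1058-fold in deposited signal, beside 10.39 in wild type. The cytosolic catalase gene *CTT1* was at 2.74 and 11.98 (9.23, wild type 8.68), and the peroxisomal catalase gene *CTA1* at 6.05 and 11.21 (5.16, wild type 4.62). Both catalase genes thus stood more than 30-fold above their untreated level, from different starting levels.

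Of 8 thiol peroxidase genes 4 were higher. *TSA2*, a cytosolic peroxiredoxin gene, was at 7.38 and 13.18 (5.80). In wild type it began lower, at 3.97, and its response was 8.58. *GPX2*, a phospholipid hydroperoxide peroxidase gene, was at 8.28 and 12.96 (4.68, wild type 3.68), and its relative *GPX1* at 5.58 and 8.61 (3.02). The mitochondrial enzymes followed, with the cytochrome c peroxidase gene *CCP1* at 10.44 and 13.93 (3.5) and the peroxiredoxin gene *PRX1* at 11.99 and 13.85 (1.86). The remaining 4 did not pass 2-fold. *TSA1*, the major cytosolic peroxiredoxin gene, was at 14.10 and 14.52, *AHP1* at 13.73 and 13.96, the nuclear peroxidase gene *DOT5* at 10.83 and 10.63, and the Yap1 sensor gene *HYR1* at 12.07 and 12.01. The deposited range ended near 15, and what room that leaves for an increase was not tested.

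**Figure D2:**
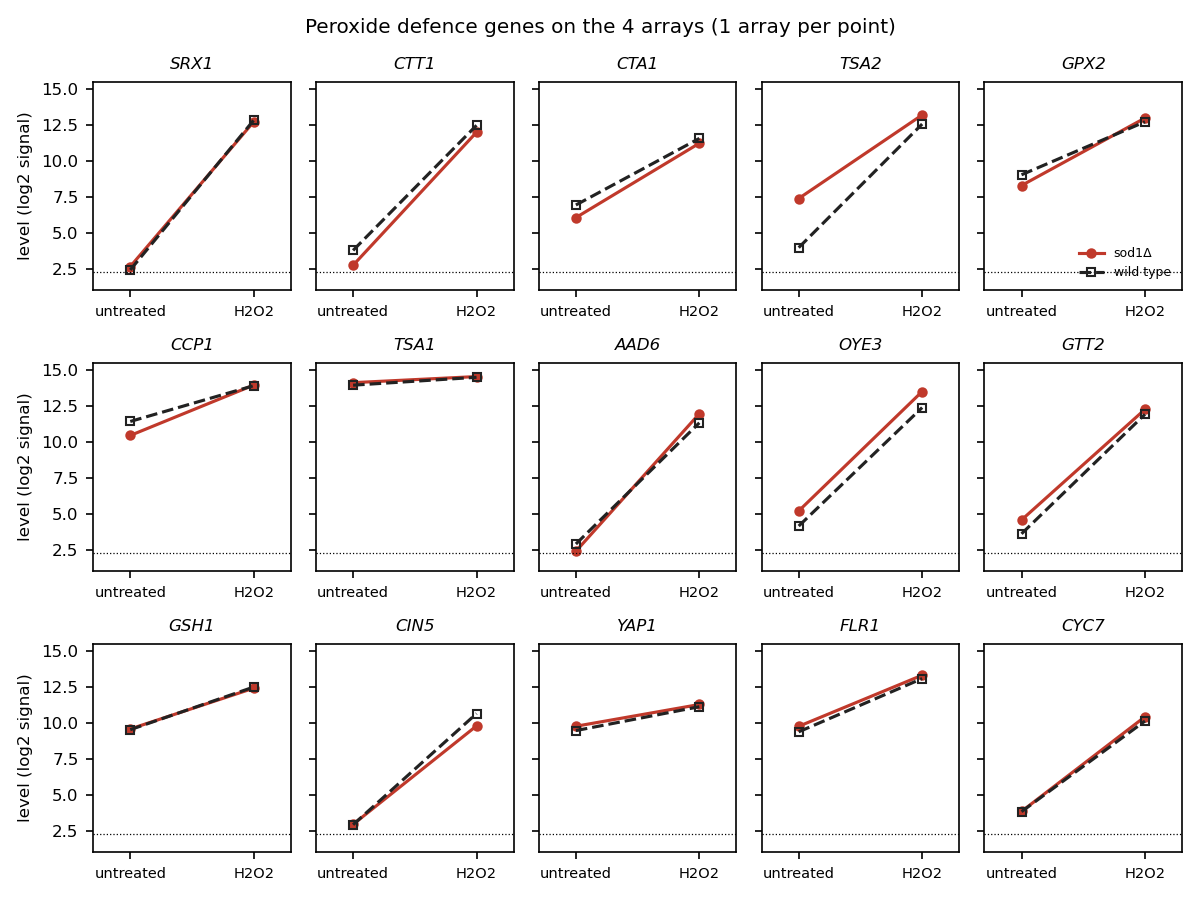
Levels (y axis, log2 signal) of 15 peroxide defence and related genes without and with H2O2 (x axis), in sod1Δ (red filled circles) and wild type (black open squares), 1 array per point, with the floor of 2.31 as a dotted line. *SRX1* joins 2.66 to 12.70 in sod1Δ and *TSA1* only 14.10 to 14.52, and *TSA2* begins at 7.38 in sod1Δ and at 3.97 in wild type.

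The thiol reduction systems that supply these peroxidases moved less. Of 15 thioredoxin and glutaredoxin genes, 4 were higher and 1 lower, beside 14.6% and 15.8% of all genes. Their median was 0.48 (wild type 0.22, with 4 higher and 0 lower). The higher ones included the cytosolic thioredoxin gene *TRX2* (13.06 and 14.18) and the thioredoxin reductase gene *TRR1* (12.92 and 14.26), with responses of 1.12 and 1.34. The glutaredoxin gene *GRX2* was at 12.10 and 13.75 (1.65). *GRX4*, whose product works in iron signalling with that of *GRX3*, was at 9.03 and 10.68 (1.65). *GRX3* itself was the lower gene, at 11.85 and 10.70 (-1.16, wild type -0.62). *TRX1*, the other cytosolic thioredoxin gene, was at 12.56 and 12.13 (-0.43 in both strains).

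Of 21 glutathione genes 8 were higher and 1 lower, with a median of 0.85 (wild type 0.64). The glutathione transferase gene *GTT2* went from 4.57 to 12.25 (7.68, wild type 8.29). *GSH1*, the rate-limiting enzyme of glutathione synthesis, was at 9.57 and 12.40 (2.83), while *GSH2*, the second step, was at 9.86 and 10.71 (0.85) and the reductase gene *GLR1* at 11.85 and 12.76 (0.91). Omega-class transferases were higher too, with *ECM4* at 10.05 and 13.39 (3.34, wild type 4.78) and *GTO3* at 9.35 and 12.05 (2.70, wild type 4.00). The vacuolar conjugate pump gene *YCF1* was at 12.13 and 13.15 (1.02). The lower gene was *DUG3*, of the complex that degrades glutathione, at 8.36 and 7.02 (-1.34).

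Reductases for aldehydes and quinones, which clear products of oxidised lipids and sugars, were higher in 13 of 22 and lower in 0, with a median of 1.41 (wild type 15 higher, 1.90). The list holds 1 entry that is no reductase, *MGR1*, a subunit of a mitochondrial protease complex (-0.04). *AAD6*, a putative aryl-alcohol dehydrogenase gene, was at 2.40 and 11.95 (9.55), and the old yellow enzyme gene *OYE3* at 5.20 and 13.49 (8.29). *YCR102C*, a gene without an assigned function, was under the floor untreated and at 8.99 with H2O2, which makes it at least 102-fold higher. The nitroreductase-like genes *FRM2* and *HBN1* were at 6.96 and 13.25 and at 10.07 and 13.44, with responses of 6.29 and 3.36 against 7.87 and 5.70 in wild type. *GRE2*, a methylglyoxal reductase gene, was at 11.67 and 14.09 (2.42, wild type 3.55). *ARI1* and *AAD10* had negative responses under 2-fold, -0.34 and -0.63.

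Export pumps were higher in 9 of 27 and lower in 1, with a median of 0.67. *YHK8*, a presumed transporter gene, was at 6.69 and 12.31 (5.62, wild type 7.39), *FLR1*, a multidrug transporter gene, at 9.75 and 13.30 (3.55), and the polyamine exporter gene *TPO4* at 9.76 and 12.69 (2.93). *ATR1* was at 10.64 and 13.12 (2.47), and the ABC transporter gene *SNQ2* at 10.05 and 11.73 (1.68), while the main drug pump gene *PDR5* was at 11.62 and 11.36. *AQR1*, an exporter of short-chain acids, was the lower gene, at 11.82 and 10.31 (-1.52, wild type -3.21).

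NADPH pays for thiol reduction. Of 23 genes for its supply 6 were higher and 2 lower (median 0.22), beside 14.6% and 15.8% of all genes. The entry enzyme of the pentose phosphate pathway, *ZWF1*, was at 12.63 and 13.58 (0.94). The higher genes were mostly the minor member of a pair, as with the transketolase gene *TKL2* at 7.24 and 11.17 (3.93, wild type 1.41), the lactonase gene *SOL4* at 8.92 and 12.16 (3.24, wild type 7.40) and *GND2* at 9.43 and 12.11 (2.68). *IDP2*, the cytosolic isocitrate dehydrogenase gene, was at 5.23 and 6.97 (1.73), and the mitochondrial NADH kinase gene *POS5* at 7.36 and 8.80 (1.44). Lower were the ribose phosphate isomerase gene *RKI1*, at 10.99 and 8.11 (-2.89), and the malic enzyme gene *MAE1*, at 8.99 and 7.23 (-1.77).

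Regulators of stress transcription were higher in 16 of 39 and lower in 0, with a median of 0.62 (wild type 16 higher, 0.88). *CIN5*, a Yap family factor gene, was at 2.95 and 9.78 (6.84, wild type 7.71). *YAP1* was at 9.76 and 11.27 (1.51), and its partner *SKN7* at 10.70 and 10.05 (-0.65). *USV1* was at 6.53 and 10.16 (3.63), the repressor genes *XBP1* and *NRG1* at 7.98 and 11.26 and at 7.03 and 10.12, and the stress kinase gene *YAK1* at 9.86 and 12.19 (2.33). *RPN4*, the activator of proteasome genes, was at 9.26 and 11.34 (2.08, wild type 1.61). *MSN2* and *MSN4*, named here although they fall outside the naming rule, were at 8.39 and 8.53 and at 9.77 and 10.19. Among 31 genes of protein kinase A and nutrient signalling 4 were higher and 2 lower (median 0.29), beside 14.6% and 15.8% of all genes. The kinase subunit genes went apart, with *TPK2* at 9.19 and 11.23 (2.04) and *TPK3* at 8.57 and 5.05 (-3.52), and *RAS1* was at 10.47 and 7.70 (-2.77).

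**Figure D3:**
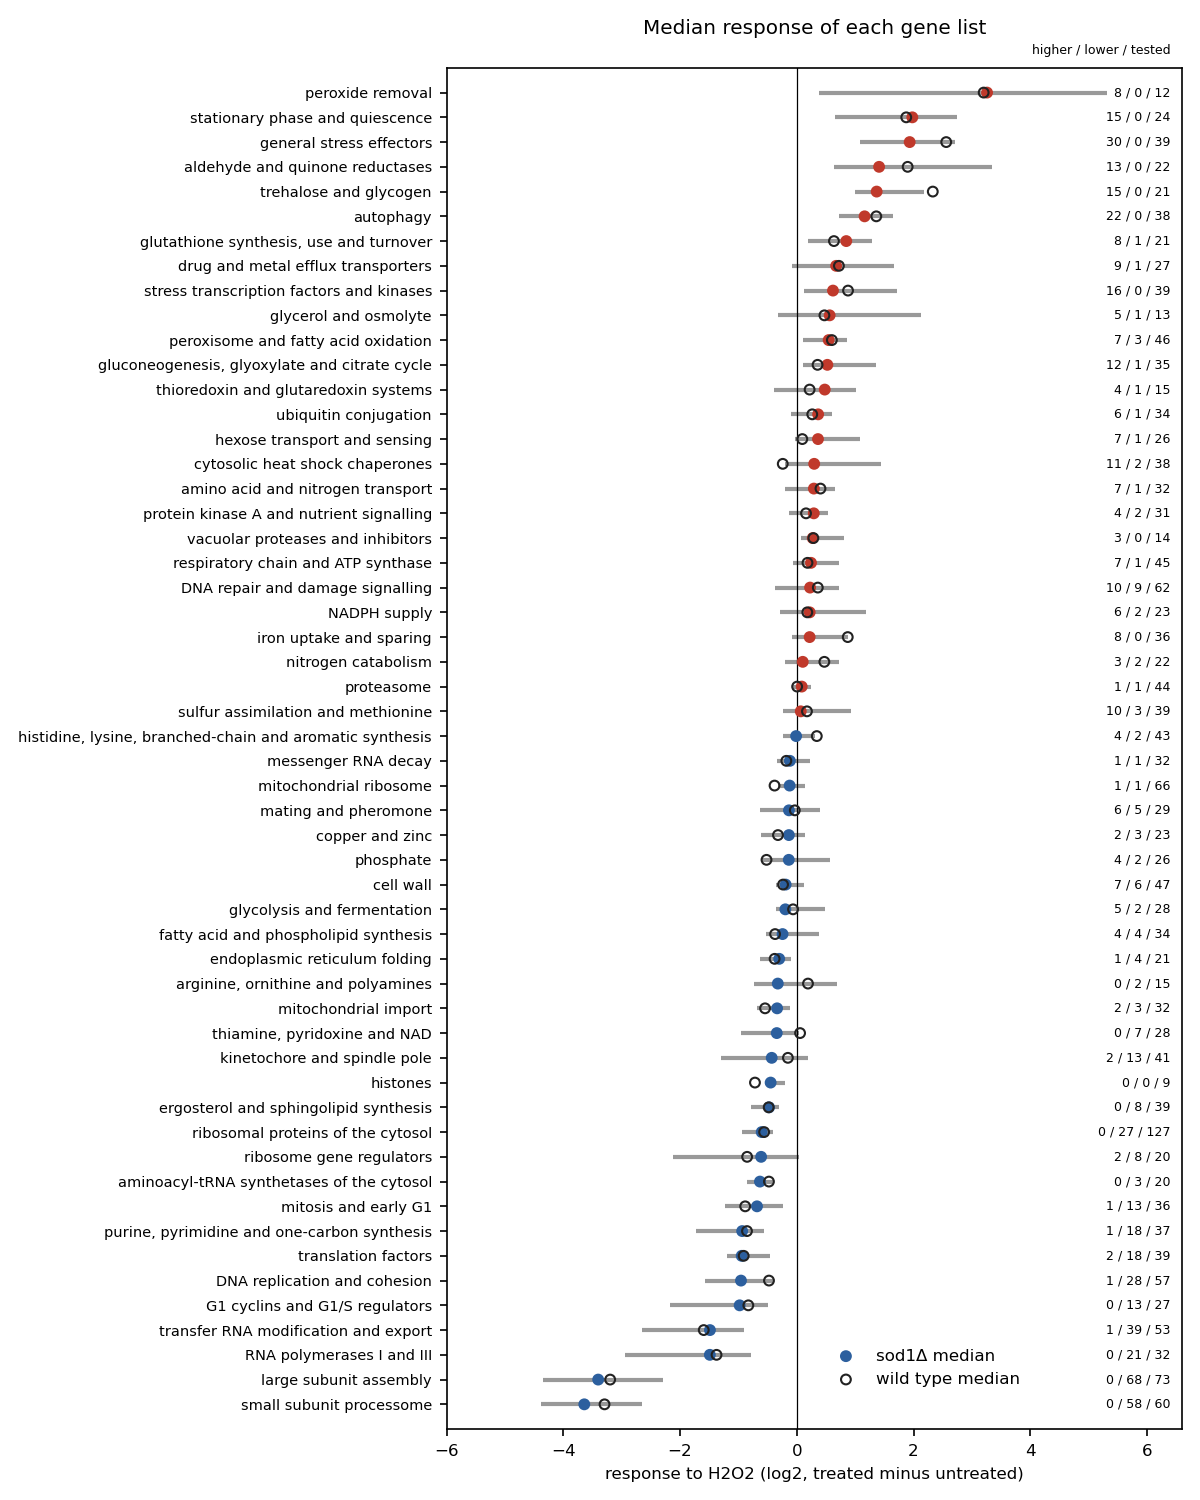
Median response to H2O2 (x axis, log2, treated minus untreated) of 54 gene lists in sod1Δ (filled, red above 0 and blue below) and in wild type (open), 1 array per group; grey bars span the sod1Δ quartiles over genes, and the numbers at the right count higher, lower and tested genes in sod1Δ. Peroxide removal lies at 3.26 and the small subunit processome at -3.64, with most metabolic lists within 1 of 0.

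The general stress programme was higher as a group. Of 39 effector genes 30 were higher and 0 lower, with a median of 1.93 in sod1Δ and 2.56 in wild type, where 34 were higher. *SDP1*, encoding a stress-induced phosphatase of MAP kinase, was at 3.53 and 8.42 (4.89). *PHM7* was at 7.68 and 11.96 (4.27, wild type 6.05), *TMA10*, a ribosome-associated protein gene, at 7.98 and 11.34 (3.35, wild type 6.33), and the reticulon gene *RTN2* at 9.79 and 13.25 (3.46, wild type 5.47). *HSP12*, a membrane-protecting protein gene, was at 13.30 and 13.81 (0.51, wild type 1.82). Over the list, the level in sod1Δ minus that in wild type had a median of 1.39 untreated and 0.53 with H2O2. The differences between the strains have 1 array per group and were not tested. Of 24 stationary phase and quiescence genes 15 were higher and 0 lower (median 1.98, wild type 1.88), including *SPG1* at 6.47 and 10.09 (3.62) and *RGI1*, a gene of energy metabolism under stress, at 9.68 and 13.55 (3.87, wild type 6.30).

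Of 21 genes for storage carbohydrate 15 were higher and 0 lower, with a median of 1.37 (wild type 2.33, with 17 higher and 1 lower). The level in sod1Δ minus that in wild type had a median of 0.64 untreated and 0.19 with H2O2. *GIP2*, a subunit that targets the Glc7 phosphatase to glycogen synthase, was at 2.68 and 8.10 (5.43, wild type 3.55), and its relatives *GAC1* and *PIG2* were at 4.27 and 7.30 and at 5.65 and 8.74. The glycogenin gene *GLG1*, which primes the polymer, was at 5.97 and 10.42 (4.45). The glycogen synthase gene *GSY1* was at 8.13 and 11.31 (3.18), and the branching enzyme gene *GLC3* at 10.98 and 13.17 (2.19). Both synthesis and breakdown of trehalose were included, with the phosphatase gene *TPS2* at 10.07 and 11.98 (1.91, wild type 3.06) and the trehalase genes *ATH1* and *NTH2* at 8.65 and 10.73 and at 9.60 and 11.68.

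Of 13 glycerol genes 5 were higher and 1 lower. The dihydroxyacetone kinase gene *DAK2* was at 2.83 and 8.71 (5.89), the glycerol dehydrogenase gene *GCY1* at 9.32 and 12.52 (3.20), and *GUT1* and *GUT2* of glycerol use at 6.17 and 7.71 and at 7.79 and 10.06. The enzymes of glycerol synthesis did not follow them. *GPP1*, the glycerol phosphatase gene, was lower at 13.29 and 11.09 (-2.19, wild type -1.46), and *GPD1* was at 12.52 and 13.06 (0.53).

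Of 38 cytosolic chaperone genes 11 were higher and 2 lower. Their median was 0.30 in sod1Δ and -0.24 in wild type, where 11 were higher and 6 lower. *CUR1* and *BTN2*, whose products sort misfolded proteins into deposits, were at 4.10 and 8.76 and at 7.88 and 10.53, with responses of 4.66 and 2.65 against 1.14 and 1.71 in wild type. The small heat shock protein gene *HSP42* was at 9.30 and 12.37 (3.07), the disaggregase gene *HSP104* at 11.21 and 12.95 (1.74), and the inducible Hsp70 gene *SSA4* at 10.46 and 12.47 (2.01). *HSP82*, the inducible Hsp90 gene, was at 11.59 and 12.87 (1.27, wild type 0.11). *HSF1*, the heat shock factor gene, was at 10.39 and 10.35. The lower genes were *CNS1*, an Hsp90 co-chaperone gene, at 9.82 and 7.73 (-2.09), and *ZPR1*, encoding a zinc finger protein that folds an elongation factor, at 9.87 and 7.87 (-2.0). In the endoplasmic reticulum 1 of 21 folding genes was higher and 4 were lower (median -0.30), and the lower share is near the 15.8% of all genes. The disulfide isomerase relative *EUG1* was at 8.99 and 6.70 (-2.29), the Hsp70 gene *LHS1* at 10.42 and 8.88 (-1.54), and *KAR2*, the main luminal Hsp70 gene, at 13.21 and 13.13.

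Protein removal by autophagy was higher in 22 of 38 genes and lower in 0, with a median of 1.16 (wild type 25 higher and 1 lower, 1.36). The set covered several steps of the pathway. *ATG39*, a receptor for nuclear and perinuclear membrane, was at 5.64 and 9.94 (4.30), *ATG29*, of the initiating scaffold, at 4.31 and 8.14 (3.83), and the starting kinase gene *ATG1* at 6.67 and 9.11 (2.44). In the conjugation machinery *ATG7* was at 8.51 and 10.99 (2.48) and *ATG3* at 6.07 and 8.33 (2.27), while *ATG5* and *ATG10* were at 8.37 and 8.02 and at 5.44 and 5.13. Of 14 vacuolar proteases and inhibitors 3 were higher, *APE1* (11.03 and 12.39), the protease inhibitor gene *PAI3* (7.51 and 10.23) and the carboxypeptidase inhibitor gene *TFS1* (10.20 and 11.89). The proteasome list had 1 of 44 higher and 1 lower, with quartiles at -0.07 and 0.25, although *RPN4* was higher. Ubiquitin conjugation had 6 higher and 1 lower of 34, and the higher share is near the 14.6% of all genes. The largest increases there were the ligase gene *HUL4* (3.66 and 6.96) and the deubiquitinase gene *DOA4* (6.99 and 10.05).

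Of 36 iron genes 8 were higher and 0 lower in sod1Δ (median 0.22), and 17 were higher in wild type (median 0.87). Untreated levels in sod1Δ minus those in wild type had a median of 0.64 over this list, and levels with H2O2 one of 0.04. The higher genes in sod1Δ were mostly not the uptake systems of the cell surface. They included the mitochondrial iron carrier gene *MRS4* (9.25 and 11.66), the heme oxygenase gene *HMX1* (9.66 and 11.79, a response of 2.14 against 4.49), the regulator gene *AFT2* (7.73 and 9.73) and the iron-sulfur scaffold genes *ISU1* and *ISU2* (1.05 and 1.28). *FRE7*, a reductase gene that also responds to copper, was at 2.94 and 7.02 (4.07). A subset named after its values were seen, 12 genes of cell wall iron retention, siderophore uptake and reductive uptake, had 0 higher in sod1Δ with a median of -0.03 and levels between 9.80 and 14.54 before treatment. The same 12 had 4 higher in wild type, with a median of 0.49. *FIT1*, a cell wall mannoprotein gene of iron retention, was at 10.21 and 9.82 (-0.39, wild type 1.08).

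Copper and zinc genes had 2 higher and 3 lower of 23, beside 14.6% and 15.8% of all genes. *CCS1*, encoding the chaperone that loads copper into Sod1, was at 10.94 and 12.14 (1.20, wild type 1.37), so its transcript was higher with H2O2 in cells that lack the client gene. *SOD2*, the mitochondrial dismutase gene, named outside the naming rule, was at 11.99 and 13.80 (1.81, wild type 1.73). The copper importer gene *CTR1* was lower at 9.24 and 8.19 (-1.05), as was *IZH1*, a zinc-regulated membrane protein gene, at 11.45 and 9.76 (-1.69).

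The sulfur list had 10 higher and 3 lower of 39 (median 0.07), beside 14.6% and 15.8% of all genes. *MET28*, a regulator of the pathway, was at 5.73 and 8.70 (2.96), the methionine permease gene *MUP3* at 8.31 and 10.89 (2.58), and the transsulfuration genes *STR2* and *STR3* at 8.42 and 9.99 and at 7.60 and 9.04. The cystine and cysteine transporter gene *YCT1*, among the 30 largest increases, was at 6.89 and 11.31 (4.41). The S-adenosylmethionine synthetase genes *SAM1* and *SAM2* were lower at 13.09 and 11.84 and at 11.54 and 10.19. Of 15 arginine and polyamine genes 0 were higher and 2 lower in sod1Δ, against 7 and 1 in wild type. The 8 arginine synthesis genes among them, a split made after the values were seen, had a median of 0.69 in sod1Δ and 1.14 in wild type, so most lay on different sides of the threshold by a small margin. *ARG3* was at 10.24 and 10.75 (0.51, wild type 1.64), and *GCN4*, the activator of amino acid synthesis, at 13.19 and 13.24. The list of the other synthesis pathways, which also holds genes of aromatic breakdown, had 4 of 43 higher and 2 lower (median -0.01). Its largest increase was the aromatic breakdown activator gene *ARO80* at 5.70 and 8.39 (2.68). The breakdown genes *ARO9* and *ARO10*, targets of *ARO80*, had responses of 1.52 and 1.21.

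Among carbon genes past 2-fold, increases outnumbered decreases. Of 35 genes of gluconeogenesis, the glyoxylate cycle and the citrate cycle, 12 were higher and 1 lower (median 0.52). The malate synthase gene *MLS1* was at 3.11 and 7.64 (4.53), the activator gene *CAT8* at 4.21 and 6.52 (2.30, wild type 0.35), *PCK1* at 5.02 and 6.82 (1.81) and *FBP1* at 4.73 and 6.36 (1.63). The succinate dehydrogenase genes *SDH1*, *SDH2* and *SDH4* had responses of 1.71, 1.33 and 2.28. Glycolysis had 5 of 28 higher and 2 lower, with the higher share near the 14.6% of all genes. Its median was -0.20, and 10 of the 28 responses were above 0. *TDH3*, *ADH1* and *GPM1*, at levels above 14, had responses of -0.07, -0.05 and 0.04. In the list of hexose transporters and sensors 7 of 26 were higher and 1 lower. The list is not of hexose genes alone, as its largest increase was the alpha-glucoside transporter gene *MAL11* at 3.63 and 8.04 (4.41). *MTH1*, a repressor of transporter genes, was at 5.54 and 8.56 (3.02, wild type 1.53), *HXT5* at 8.22 and 10.93 (2.71), and *HXT10* at 2.96 and 5.89 (2.94, wild type 0.05). *HXT2* was lower at 12.32 and 11.08 (-1.24, wild type -2.91).

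Of 45 respiratory genes 7 were higher and 1 lower (median 0.24), and the higher share is near the 14.6% of all genes. Both cytochrome c genes were among the higher, *CYC7* at 3.84 and 10.42 (6.57, wild type 6.29) and *CYC1* at 6.90 and 10.84 (3.94), next to their electron donor *CYB2*, the lactate dehydrogenase gene, at 8.30 and 10.88 (2.58). These are also the partners of *CCP1*, which reduces peroxide with electrons from cytochrome c. The NADH dehydrogenase genes *NDE2* and *NDI1* were at 5.48 and 8.33 and at 10.61 and 12.11. The mitochondrial ribosome list had 1 of 66 higher and 1 lower (median -0.12), and protein import 2 of 32 higher and 3 lower (median -0.34). The higher gene of the ribosome list was *MRP8* (1.02), whose place in that ribosome is not established. The higher import genes were *MAS1*, of the peptidase that cuts presequences off (10.49 and 12.09), and *MIA40*, the oxidoreductase of the intermembrane space (8.85 and 10.03). Of 46 peroxisomal and fatty acid genes 7 were higher and 3 lower, with the higher share near the 14.6% of all genes. The acetylcarnitine genes *CRC1* and *CAT2* were at 6.03 and 9.04 and at 5.46 and 8.34. *PXA2*, of the fatty acid importer, was at least 6.89-fold higher, from the floor to 5.10.

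The decreases were dominated by factors that build ribosomes. In the small subunit processome, the particle that cuts and folds the precursor of the small ribosomal RNA, 58 of 60 genes were lower and 0 higher, with a median of -3.64 in sod1Δ and -3.29 in wild type. In large subunit assembly it was 68 of 73 and 0, with medians of -3.40 and -3.20. The background share of lower genes was 15.8%. *DHR2*, an RNA helicase-like factor gene, was the largest decrease of all tested genes, from 10.22 to 2.72 (-7.51, wild type -4.36). The helicase genes *DRS1* and *ROK1* were at 11.01 and 3.94 and at 9.68 and 3.19, with wild type responses of -3.93 and -3.36 beside -7.06 and -6.49. *TSR1*, of late small subunit assembly, was at 9.42 and 2.56 (-6.86, wild type -4.14).

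Some transcripts for ribosome building ended at the floor, where only a bound can be given. *RSA4*, of large subunit assembly, was at 8.62 and under the floor, at least 79.2-fold lower. *MRD1*, a processome gene that the list above does not hold, was at 8.54 and under the floor, at least 75.2-fold lower. The genes that stayed within 2-fold were *UTP30* and *RRP7* of the small subunit, at 8.23 and 7.83 and at 10.52 and 9.93, and *RSA1*, *FPR3*, *REA1*, *JIP5* and *TIF6* of the large, with responses of -0.27, -0.33, -0.54, -0.64 and -0.92. *NSR1*, a nucleolar protein gene, was at 12.02 and 10.08 in sod1Δ, a response of -1.93, and at -4.12 in wild type, so the strains were not ordered the same way at every gene.

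**Figure D4:**
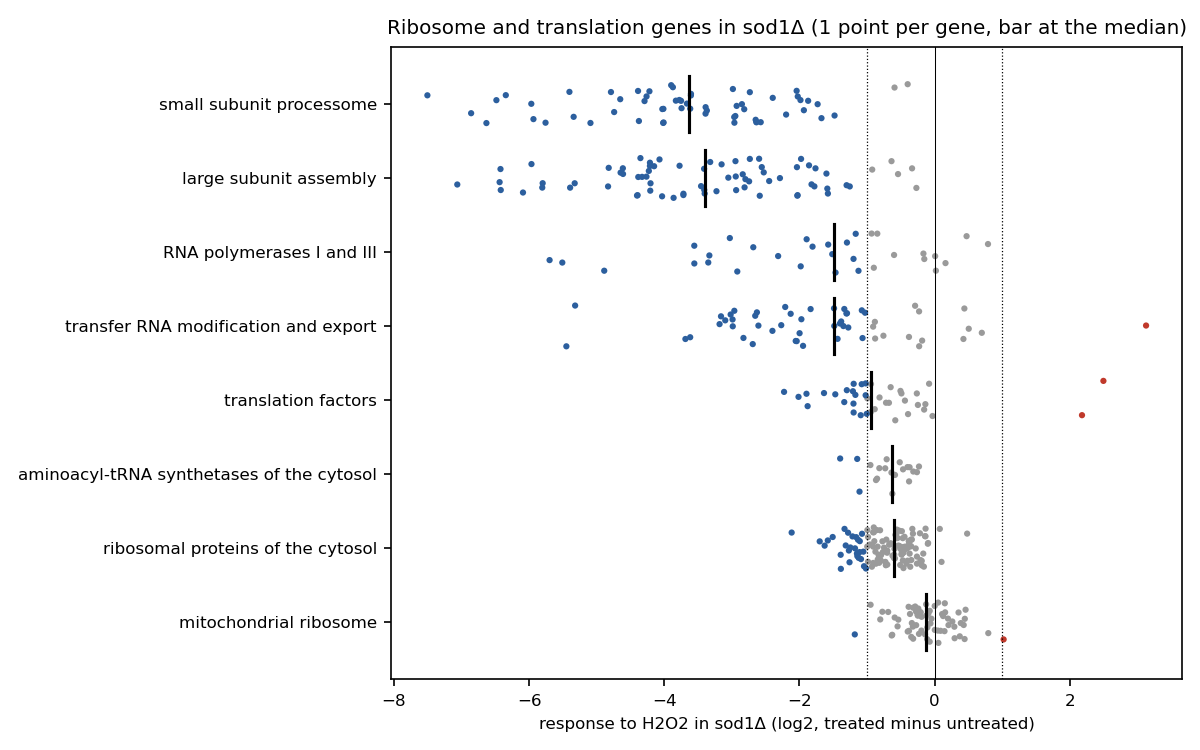
Response to H2O2 in sod1Δ (x axis, log2, treated minus untreated, 1 array a side) of genes in 8 ribosome and translation lists, 1 point per gene, with the median as a bar and dotted lines at 2-fold; blue is lower, red higher and grey neither. Assembly factors spread from -7.51 to -0.27, while ribosomal proteins lie between -2.12 and 0.48 and the mitochondrial ribosome lies around 0.

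Ribosomal protein genes themselves moved far less than the factors that assemble them. Of 127 genes of the cytosolic ribosome 27 were lower and 0 higher, with a median of -0.60, and 124 had a negative response. *RPL22B* was at 10.52 and 8.40 (-2.12), *RPL21B* at 12.50 and 10.80 (-1.70), and *RPS9A* at 11.40 and 9.78 (-1.63), while *RPL10* and *RPL30* were at 13.65 and 13.73 and at 13.79 and 13.65. Many ribosomal proteins have a near-identical copy whose transcript a probe set may share, so single copies are uncertain. Of 20 regulators 2 were higher and 8 lower. *TOD6*, a repressor of ribosome assembly genes, was at 9.43 and 2.84 (-6.59), and its relative *DOT6* was at 11.56 and 11.79. *IFH1* and *FHL1*, a co-activator and its DNA-binding partner at ribosomal protein genes, were at 8.01 and 4.70 and at 6.62 and 4.77. The rival co-repressor gene *CRF1* was higher at 6.28 and 8.19 (1.91), as was *MAF1*, the repressor of RNA polymerase III, at 7.72 and 8.92 (1.19). *ABF1*, a general regulatory factor gene, was at 7.50 and 4.07 (-3.43, wild type -1.07).

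The polymerases that make ribosomal and transfer RNA were lower in 21 of 32 genes and higher in 0, with a median of -1.49. A split by complex, made after the values were seen, separated subunits from initiation factors. Of 7 subunits found only in RNA polymerase I 6 were lower (median -2.92), as were 9 of 10 found only in polymerase III (median -2.67) and 6 of 7 shared ones (median -1.51). Of 8 initiation factors of polymerase III, 0 were lower or higher, with responses from -0.60 to 0.79. *RPA49* and *RPA34*, a pair of polymerase I subunits that form a dimer, were at 10.08 and 4.38 and at 9.43 and 3.92. *RPC82*, of polymerase III, was at 7.03 and under the floor, at least 26.4-fold lower, while *TFC3*, of the factor that binds transfer RNA genes, was at 9.23 and 10.02.

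Modification and export of transfer RNA were lower in 39 of 53 genes and higher in 1 (median -1.49). *DUS1*, a dihydrouridine synthase gene, was at 8.27 and 2.82 (-5.45), *GCD10*, of the adenosine methyltransferase, at 9.92 and 4.60 (-5.32, wild type -2.63), and *TRM11* at 11.17 and 7.55 (-3.62). The higher gene was *RPM2*, a subunit of mitochondrial RNase P, at 8.23 and 11.36 (3.13). Of 39 translation factors 18 were lower and 2 higher (median -0.94). The scaffold gene *TIF4631* was at 10.39 and 8.17 (-2.23) and the cap-binding protein gene *CDC33* at 12.17 and 10.70 (-1.47), while *HEF3*, a minor elongation factor gene, was higher at 4.33 and 6.83 (2.50). The synthetases that charge transfer RNA had 3 of 20 lower, near the 15.8% of all genes, with every response between -1.40 and -0.23. Nucleotide synthesis had 18 of 37 lower and 1 higher (median -0.94). *URA7*, the CTP synthase gene, was at 11.28 and 5.89 (-5.38), the adenine deaminase gene *AAH1* at 10.53 and 5.89 (-4.64), and *HPT1*, of purine salvage, at 11.32 and 7.87 (-3.45).

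At the start of the cell cycle 13 of 27 genes were lower and 0 higher, with a median of -0.98 (wild type 11 lower, -0.83). The cyclin gene *PCL1* was at 8.17 and 2.33 (-5.84), *CLN2* at 9.95 and 6.88 (-3.07), *CLN1* at 9.15 and 6.82 (-2.33), and the S phase cyclin gene *CLB6* at 6.26 and 2.35 (-3.92, wild type -1.93). *CLN3*, the most upstream G1 cyclin gene, was at 11.79 and 11.37, and *SIC1*, an inhibitor of S phase kinase, at 9.65 and 9.82. *HO*, the mating type switching endonuclease gene, which is transcribed in late G1, was at 10.07 and 3.28 (-6.79, wild type -4.31). The regulator genes *MBP1* and *SWI6* were at 7.96 and 8.08 and at 9.95 and 10.21.

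DNA replication and cohesion had 28 of 57 genes lower and 1 higher in sod1Δ (median -0.96). Wild type had 17 lower and 4 higher (median -0.48). The cohesin subunit gene *SMC3* was at 8.26 and 3.84 (-4.42, wild type -1.83), *CDC45*, of the replicative helicase, at 6.92 and 3.07 (-3.85, wild type -1.02), and the sliding clamp gene *POL30* at 9.71 and 6.06 (-3.65, wild type -1.79). *POL12*, of the primase complex, was at 8.85 and 6.64 (-2.22, wild type -0.12), and the cohesin regulator gene *PDS5* at 8.52 and 5.94 (-2.58, wild type -0.50). In a split made after the values were seen, 6 of 10 DNA polymerase and primase genes and 4 of 6 genes of the MCM helicase ring were lower in sod1Δ, against 3 and 1 in wild type. Of 6 origin recognition genes 2 were lower in each strain. The higher gene was *PSF2* at 8.78 and 10.09 (1.31). Histone genes, which are also made in S phase, did not pass 2-fold in sod1Δ in any of 9 cases. They lay between -0.98 for *HTB2* (12.09 and 11.11) and -0.15 for *HHF1* (12.77 and 12.62), while 4 were lower in wild type.

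Later in the cycle, 13 of 36 genes of mitosis and early G1 were lower and 1 higher (median -0.68). *FKH1*, a forkhead factor gene, was at 7.85 and 3.30 (-4.55) and the mitotic cyclin gene *CLB2* at 8.10 and 5.35 (-2.76). The exit genes that act in daughter cells stayed near their untreated level, as with the chitinase gene *CTS1* at 12.90 and 12.82 and *DSE2* at 12.58 and 12.48. Of 41 kinetochore and spindle pole genes 13 were lower and 2 higher, against 8 and 3 in wild type. *CSE4*, the centromeric histone gene, was at 5.83 and 2.51 (-3.32, wild type -0.96), *NNF1* at 7.70 and 3.75 (-3.95), and *SPC29*, of the spindle pole body, at 4.46 and 2.68 (-1.78, wild type 0.45). *CTF19*, of the inner kinetochore, was higher at 5.53 and 8.42 (2.89, wild type 0.80).

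Of 62 DNA repair genes 10 were higher and 9 lower (median 0.23), shares near the 14.6% and 15.8% of all genes. *OGG1*, which encodes the glycosylase that removes oxidised guanine, was lower at 7.39 and 2.42 (-4.98, wild type -2.53). The mismatch repair gene *MSH6* was at 10.20 and 7.13 (-3.07) and the helicase gene *SGS1* at 6.26 and 3.46 (-2.80). Higher were the photolyase gene *PHR1* at 4.38 and 7.38 (3.0), the endonuclease gene *NTG1*, also active on oxidised bases, at 5.10 and 6.50 (1.40), and the end-binding gene *YKU70* at 5.98 and 7.64 (1.66). The checkpoint kinase gene *RAD53* was at 5.38 and 4.09 (-1.29, wild type 0.76). Its downstream transcript *RNR3*, of the damage-induced ribonucleotide reductase, was at 4.46 and 5.80 (1.34, wild type 3.74), and *HUG1*, which inhibits that enzyme, was at 7.36 and 6.23 (-1.13, wild type -0.01).

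Ergosterol and sphingolipid synthesis had 0 of 39 higher and 8 lower (median -0.48), led by the sphingolipid hydroxylase gene *SUR2* (10.77 and 8.34) and the elongase gene *ELO2* (11.24 and 9.03), with the sterol genes *ERG25* and *ERG3* at -1.65 and -1.59. Fatty acid and phospholipid genes had 4 of 34 higher and 4 lower, beside 14.6% and 15.8% of all genes. *OLE1*, the desaturase gene, was at 12.37 and 10.70 (-1.67, wild type -0.64), and *INO2*, an activator of phospholipid genes, at 5.27 and 2.41 (-2.86). The cell wall list had 7 of 47 higher and 6 lower, near the 14.6% and 15.8% of all genes. Its largest increase was *SRL3* at 6.26 and 9.17 (2.91), a gene of G1 control rather than of the wall. The mannoprotein genes *TIR2* and *DAN4* were at 6.90 and 9.66 and at 8.15 and 10.87, and the wall-crosslinking gene *UTR2* was lower at 12.70 and 10.12 (-2.58).

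Against the same background of 14.6% higher and 15.8% lower, the phosphate list had 4 of 26 higher and 2 lower in sod1Δ, against 3 and 9 in wild type. Its largest increase was *CTF19* (2.89), the inner kinetochore gene named above, which is no phosphate gene. *PHO84*, the high-affinity transporter gene, was at 9.93 and 9.27, and at 13.54 and 12.52 in wild type. *PHO5*, an acid phosphatase gene, was at 7.93 and 8.55 (0.62), and at 12.23 and 11.09 in wild type (-1.13). Untreated levels in sod1Δ minus those in wild type had a median of -0.64 over the phosphate list. The part of these unlike starting levels in the counts was not tested. Thiamine, pyridoxine and NAD genes had 0 of 28 higher and 7 lower, including the thiamine-repressed phosphatase gene *PHO3* at 13.06 and 10.28 (-2.79) and the transporter gene *THI7* at 12.70 and 11.21 (-1.49). Amino acid and nitrogen transport had 7 of 32 higher and 1 lower and nitrogen catabolism 3 of 22 and 2. Messenger RNA decay had 1 of 32 higher, *PUF2*, and 1 lower, the decapping gene *DCP1* at 8.20 and 6.48 (-1.72). Mating and pheromone genes had 6 of 29 higher and 5 lower. Of the rival MAP kinase genes, *KSS1* was at 6.59 and 8.92 (2.32) and *FUS3* at 7.23 and 5.23 (-2.0), and the membrane fusion gene *FUS1* was at 5.96 and 8.87 (2.91).

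Closely related gene copies often differed in the response. Of 63 pairs from families in these lists, chosen with the results known, 61 could be compared and 39 differed at least 2-fold in response within sod1Δ. In 32 pairs 1 gene passed 2-fold and the other did not, in 11 both passed the same way, in 1 they passed in opposite ways, and in 17 neither passed. The old yellow enzyme genes were furthest apart, with *OYE3* at 8.29 and *OYE2*, at 13.15 and 13.69, at 0.54. The peroxiredoxins *TSA2* and *TSA1* stood at 5.80 and 0.42, the dihydroxyacetone kinases *DAK2* and *DAK1* at 5.89 and 0.56, and the glycogenins *GLG1* and *GLG2* at 4.45 and 0.27. In the pentose phosphate pathway the pattern held at 4 steps. *GND2* and *GND1* were at 2.68 and -0.28, *SOL4* and *SOL3* at 3.24 and -0.29, *TKL2* and *TKL1* at 3.93 and -0.44, and the transaldolase genes *NQM1* and *TAL1* at 3.45 and -0.22.

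In each of those 4 pairs the gene with the high response was the dimmer of the pair before H2O2, *GND2* at 9.43 against *GND1* at 13.47, for example. Levels of different probe sets are not on 1 scale, so this order is a description of signals. Pairs also parted on the downward side, with *PCL1* and *PCL2* at -5.84 and -0.47 and *TOD6* and *DOT6* at -6.59 and 0.23. The ribonucleotide reductase genes *RNR1* and *RNR3* passed in opposite ways, at -1.38 and 1.34.

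**Figure D5:**
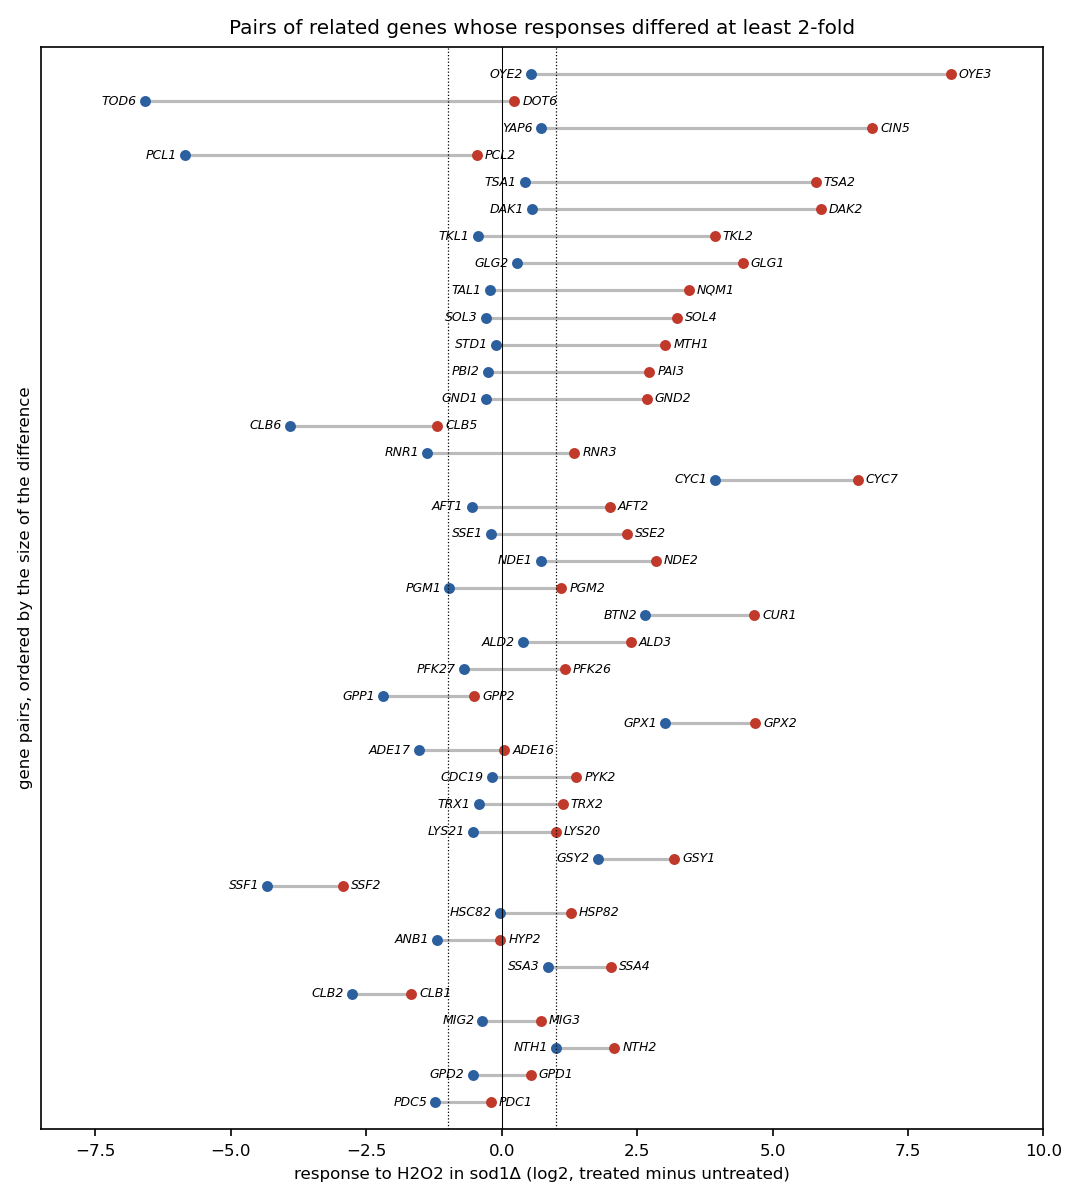
Responses to H2O2 in sod1Δ (x axis, log2, treated minus untreated, 1 array a side) of the 39 related gene pairs whose responses differed at least 2-fold, ordered by the size of that difference (y axis). In each line the blue point is the gene with the lower response and the red point the gene with the higher one, with dotted lines at 2-fold; *OYE2* and *OYE3* are furthest apart, at 0.54 and 8.29.

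Genes of like response lay beside each other on the chromosomes more often than the background. Gene order came from the RefSeq table of assembly R64, used for order alone and without strand. Of 769 higher genes with a tested neighbour, 38.2% had a higher gene next to them, against 24.4% of all 5280 such genes, and of 833 lower genes 41.9% had a lower neighbour, against 27.0%. Shared probes, overlapping transcripts and shared promoters were not separated here. The following examples were chosen after their values were seen. *YER053C-A* and *GIP2* were next to each other, with responses of 5.75 and 5.43, as were *YNL195C* and *YNL194C* at 5.72 and 4.32, and *HBN1* and *FRM2*. Among the decreases, *RSA3*, *UTP13* and *IFH1* stood in a row at -4.83, -3.78 and -3.30, and *GCD10* was next to *NOP2* at -5.32 and -4.21.

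Chromosome ends had more higher and fewer lower genes than the rest. Of 219 tested genes among the outermost 10 of each end, 65 (29.7%) were higher and 17 (7.76%) lower, against 13.97% and 16.1% of the other 5119. Part of this count belongs to families with shared sequence. Of 12 tested seripauperin (*PAU*) genes, cell wall related genes found mostly at chromosome ends, 8 were higher, and all 12 were measured on probe sets that other transcripts can share. *PAU3* was at 4.41 and 9.96 (5.55). How many of these *PAU* genes changed on their own cannot be told apart from these probe sets.

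Several of the largest increases belonged to genes of little known function. *YLR460C* was at 2.97 and 10.95 (7.98, wild type 5.95) and *YDL218W* at 6.19 and 13.30 (7.12, wild type 5.11). *SPG4*, needed for survival in stationary phase, was at 2.66 and 9.32 (6.66, wild type 3.01), and *FAT3*, a gene linked to fatty acid uptake, at 5.73 and 10.22 (4.49, wild type 3.12). In wild type *YMR085W* had 4.44 beside 4.40 in sod1Δ (2.45 and 6.85). *YER053C-A* was at 5.24 and 10.98 in sod1Δ, with a wild type response of 6.92 beside 5.75. The sod1Δ response was thus the larger in some of these genes and the smaller in others, and the differences between single arrays were not tested.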

How the data were processed

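RNA of 4 cultures was measured on 4 Affymetrix arrays. Amplification started from 50 ng of RNA and labelling used biotin, per the labels' protocols. The authors deposited log2 signals, made with GCRMA per the submitters' processing notes. No version or parameter of GCRMA is stated in the sources used here. GCRMA subtracts an estimated background and scales arrays to a common distribution, which stretches folds near the floor and hides a change in total RNA.

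Of 10928 probe sets, 5498 named 1 *S. cerevisiae* gene, in 5449 genes, 47 of them with several probe sets, which were averaged. Symbols came from the platform annotation, updated through RefSeq R64, and 125 genes lay on probe sets that other transcripts can share. The floor was taken over all 4 arrays. A fold from or to the floor is a lower bound in deposited signal. Arrays give no counting depth, and 1 array per group limits the precision, so no test was made. Treated was set over untreated in sod1Δ and, measured the same way, in wild type, and levels of the strains were set side by side.

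The members and the 54 lists were chosen with earlier results of these data known. The text names genes from the 30 largest changes in each direction, up to 6 members of each list per direction, 4 short lists whole, the marker genes and the genes nearest the threshold; genes named outside this rule, mostly given for contrast, were chosen after their values were seen. Promoter motifs were not analysed here, as no sequence table was at hand. Values were computed in Python 3.11.15 with pandas 2.3.3 and numpy 2.4.6, and figures with matplotlib 3.10.9. The steps were tested on simulated data. Alternatives were another normalization, centring, the brightest probe set, an offset of 32 and other floors.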

Additional observations from a re-analysis of the deposited data

Results flagged for a closer look

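*TIR1* was the only gene past 2-fold in opposite directions in the strains. It was 1.31 higher with H2O2 in sod1Δ and -1.06 on the same scale in wild type, with 1 array per group, and the difference was not tested.

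Probe sets without a gene name also carried signal. Of 3470 such probe sets that are not controls, 513 lay above the floor in sod1Δ, and 90 of these passed 2-fold, 67 upward and 23 downward. Their species was not established, so they may include *S. pombe* probe sets without a gene annotation. Of the 1746 probe sets annotated to *S. pombe* genes 145 lay above the floor and 0 passed 2-fold. Those probe sets define the floor and lie mostly at background, so they are no measure of spread at brighter levels. The largest unnamed increase went from 4.22 to 10.27 (6.04, wild type 6.44) and the largest decrease from 9.33 to 5.17 (-4.16, wild type -1.93).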

How the results depend on the processing

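Both counts stayed within 1.5 times of the reported ones under 7 alternatives. Higher and lower genes numbered 826 and 787 after quantile normalization, 798 and 838 after centring, 784 and 841 when a gene took its brightest probe set, 651 and 716 with 32 added to the linear signal, 773 and 829 with both arrays above the floor, and 782 and 844 with no floor or a floor at the 99th percentile. The 54 list medians each moved by less than the spread used as the criterion in all 378 recomputed values. The median of the histidine, lysine, branched-chain and aromatic list changed sign from -0.01 to 0.05 after quantile normalization and to 0.003 after centring, and that of mating and pheromone from -0.13 to 0.03 after quantile normalization. The 616 named genes were recomputed under some of the alternatives only. Of their 2464 values 109 moved and 0 called values reversed, while 2 of the genes changed sign in at least 1 setting. No paired analysis was possible because each group has 1 array. For the same reason nothing could be left out in turn, and variation between cultures is unknown. The planned comparison of promoter motifs was not run. Signals near the floor and near the top of the range limit what folds can show.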
